A study of Mus musculus with 72 samples.

Results

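Distal junctions on the bait chromosomes were examined in mouse neural progenitor cells. LAM-HTGTS captures the joints between a Cas9 break made at a chosen site, the bait, and breaks elsewhere in the genome, the prey. A distal junction was a prey end on the bait chromosome itself that lay more than 1 Mb from the bait cut. Of 591366 junctions placed on the chromosomes in 60 libraries, 31742 (5.37%) met this rule. The chromosome 6 bait gave 18821 of them in 23 libraries, the chromosome 8 bait 3119 in 12, the chromosome 12 bait 4563 in 10 and the chromosome 14 bait 5239 in 15. The junctions were selected on the chromosome and position of the prey alone, so that their lying beyond 1 Mb is no result, and libraries were compared in what the rule did not use. Just inside the limit, at 1 to 1.1 Mb, lay 74, 25, 21 and 50 junctions of the chromosome 6, 8, 12 and 14 baits, and the last 0.1 Mb before the limit held 82, 38, 15 and 59 that were left out. The other junctions were 382972 within 1 Mb of a cut and 176652 on other chromosomes, which are called translocations here.

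A break on the bait chromosome can be joined to the bait as a deletion, an inversion or an excised circle, whereas a joint to another chromosome makes a translocation. Ends are joined mainly by non-homologous end joining, which needs Xrcc4, and otherwise by alternative routes such as the one of DNA polymerase theta (Pol theta), which anneals short stretches of shared sequence called microhomology. Mild replication stress with aphidicolin, a DNA polymerase inhibitor, breaks long neural genes repeatedly at recurrent DNA break clusters (RDCs).

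The Xrcc4/p53-deficient cells were neural progenitor cells derived from the embryonic stem cell line Nxp010, labelled NestinCre+Xrcc4-/-p53-/-, and all their libraries came from this 1 line. All of these cells were the parental cells, without an edited RDC gene. Aphidicolin was given at 0.5 µM for 72 h and at 0.25 µM for a further 24 h, and ART558, an inhibitor of the Pol theta polymerase, at 5 µM and then 2.5 µM over the same times. There were 18 libraries with DMSO, 9 with ART558, 9 with aphidicolin and 9 with both drugs. Wild-type cells were primary neural stem and progenitor cells from brains of C57BL/6J embryos, with 7 libraries after aphidicolin and 8 after both drugs. Wild-type libraries with DMSO or with ART558 alone were not analysed here. The chromosome 14 bait and 7 of the chromosome 6 DMSO libraries of the deficient cells belong to an experiment on gene promoters, and the remaining libraries to a collection on Pol theta.

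The guides set the points from which each distance was measured and are shown for that reason. Each is written 5′ to 3′ with the adjoining PAM in capitals, and the coordinates are those of the 20 guide bases in GRCm38.
Chromosome 6 guide, minus strand, chr6:70950106-70950125: gagggttggaaatgctcgtaTGG
Chromosome 8 guide, minus strand, chr8:59477701-59477720: gtcgaccatatgctaatcttAGG
Chromosome 12 guide, plus strand, chr12:12994038-12994057: attccgccaaccctcgagatAGG
Chromosome 14 guide, plus strand, chr14:83268830-83268849: ggcttagttatagtaggggcTGG
The cut on chromosome 6 lay 6.42 kb from Foxi3, that on chromosome 8 lay 563 kb from BC030500, that on chromosome 12 lay within the non-coding RNA gene Gm35208 and 52.1 kb from Mycn, and that on chromosome 14 lay 1174.72 kb from Pcdh17, each the nearest protein-coding gene.

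The next sequences show what distal junctions look like in reads of the Xrcc4/p53-deficient cells. Each holds 12 bases of bait, the shared bases in capitals where there are any, and 12 bases of prey, read from the bait towards the prey.
Ctnna2, DMSO, chromosome 6 position 77554866, minus strand: agtagagggttgGAcactgggttatt
Ctnna2, aphidicolin, chromosome 6 position 77404081, minus strand: aggacagatgagCAgaaagggatctg
Ctnna2, aphidicolin plus ART558, chromosome 6 position 77390872, plus strand: agtagagagttgttgtccttggag
Csmd1, aphidicolin, chromosome 8 position 16968731, plus strand: caaatcctacctAAtcaatcaggcag
Csmd1, aphidicolin plus ART558, chromosome 8 position 17202396, plus strand: ttcctaactccttatctctctatc
Pcdh9, aphidicolin, chromosome 14 position 93469589, minus strand: tggcttagttatAGattctggagtct
Immp2l, aphidicolin, chromosome 12 position 41562558, plus strand: cattccgccaacCCTCtgaactttgatt
Each is the middle one by position among the junctions of its gene and group with the commonest length in its class, which was direct joints with ART558 and joints with 2 to 4 shared bases without it. Joints with 2 shared bases were the commonest class in every group of deficient cells without ART558, and direct joints, with no shared base, in every group with ART558 and in every wild-type group. In 93% of 3000 distal junctions checked, the first 12 prey bases of the read were equal to the genome at the listed position.

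Libraries held 133 to 36999 placed junctions (median 7737) and 0 to 2899 distal junctions (median 371). Comparisons used the 57 libraries with at least 50 distal junctions. The libraries left out were ART558 replicate 3 of chromosome 8, with 0 distal junctions, which allows a share of up to 10.7% at 3 counts, combined-drug replicate 1 of chromosome 8, with 44, and DMSO replicate 2 of chromosome 14, with 17. The study's reporting summary calls the libraries of the deficient cells technical repeats and those of wild-type cells biological repeats, whereas a legend calls the former biological replicates. For the deficient cells, p-values measure the spread between libraries of 1 line. The 4 wild-type libraries of chromosome 6 with both drugs stood apart, since 28.2%, 42.9%, 13.8% and 27.4% of their distinct distal junctions were also found, at the same position, strand and bait end, in another of the 4. In the 3 aphidicolin libraries of the same bait and cells this was 0.813%, 2.70% and 0.862%, and tests that include chromosome 6 in wild-type cells were therefore also run without such junctions. Whether molecules passed between these libraries was not tested.

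ART558 lowered the share of distal junctions among all junctions outside 1 Mb, that is, among distal junctions and translocations together, in the deficient cells. For chromosome 6, the share was 18.7% and 18.99% in the DMSO libraries and 11.4%, 9.79% and 13.9% in the ART558 libraries. For chromosome 8, it was 19.3%, 18.0% and 18.6% with DMSO and 8.76% and 6.90% with ART558. For chromosome 12, it was 10.7% and 12.1% with DMSO and 5.67%, 6.19% and 6.09% with ART558. The DMSO and ART558 libraries of chromosome 8 came from different sequencing runs, so that drug and run cannot be told apart for that bait. The groups did not overlap for any bait, and the mean difference within baits was -7.78 percentage points (exact permutation test within baits, two-sided, p = 0.001, adjusted p = 0.0064 over 32 tests, the raw p being the smallest possible). On chromosomes 6 and 12, whose groups shared a run, it was -6.27 (exact permutation p = 0.01). With aphidicolin in both groups the share also fell, from 23.8% to 17.9%, 16.8% and 11.8% for chromosome 6, from 24.3%, 25.4% and 23.5% to 8.85% and 8.11% for chromosome 8, and from 10.5% in both libraries to 6.72%, 5.09% and 7.17% for chromosome 12. The mean difference was -9.45 percentage points (exact permutation p = 0.0025, adjusted p = 0.008, again the smallest possible raw p). The single aphidicolin library of chromosome 6 has no replicate, and for chromosomes 8 and 12 the groups of this comparison came from different sequencing runs, so that drug and run cannot be told apart there. Within run 8, which held chromosome 6 libraries of both groups, the difference was -8.25 percentage points, and the smallest p that these 4 libraries allow in the exact test is 0.25. The paper reports a gain of a bait chromosome in part of the untreated deficient cells, which was lost with Pol theta inhibition. It also reports a loss of another bait chromosome in part of the cells. No share or density given here was corrected for copy number. Its part in the falls on chromosomes 6 and 8 was not tested.

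The denominator decided the direction of the ART558 effect. As a percentage of all placed junctions, those within 1 Mb included, distal junctions rose with ART558 alone by 1.202 percentage points (exact permutation p = 0.002). They went from 1.55%, 1.52% and 1.61% to 3.04% and 3.22% for chromosome 8, whose groups came from different runs. For chromosome 12 they went from 2.26% and 2.03% to 3.15%, 3.26% and 3.39%. For chromosome 6 the groups overlapped, at 4.53% and 5.45% with DMSO and 4.98%, 7.11% and 5.62% with ART558. The junctions within 1 Mb took a mean of 73.5%, 91.6% and 81.0% of the DMSO libraries of chromosomes 6, 8 and 12 and 47.8%, 59.3% and 45.4% of the ART558 libraries. The change relative to translocations and the change relative to everything near the cut thus ran in opposite directions. For both drugs against aphidicolin, distal junctions fell on either scale, by 1.52 percentage points of all junctions (exact permutation p = 0.0125). The largest fall was on chromosome 6, from 12.6% in its single aphidicolin library to a mean of 9.11%. On chromosome 8 the means were 5.78% and 5.09%. On chromosome 12 they were 4.67% and 4.27%, and the groups overlapped.

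**Figure D1:**
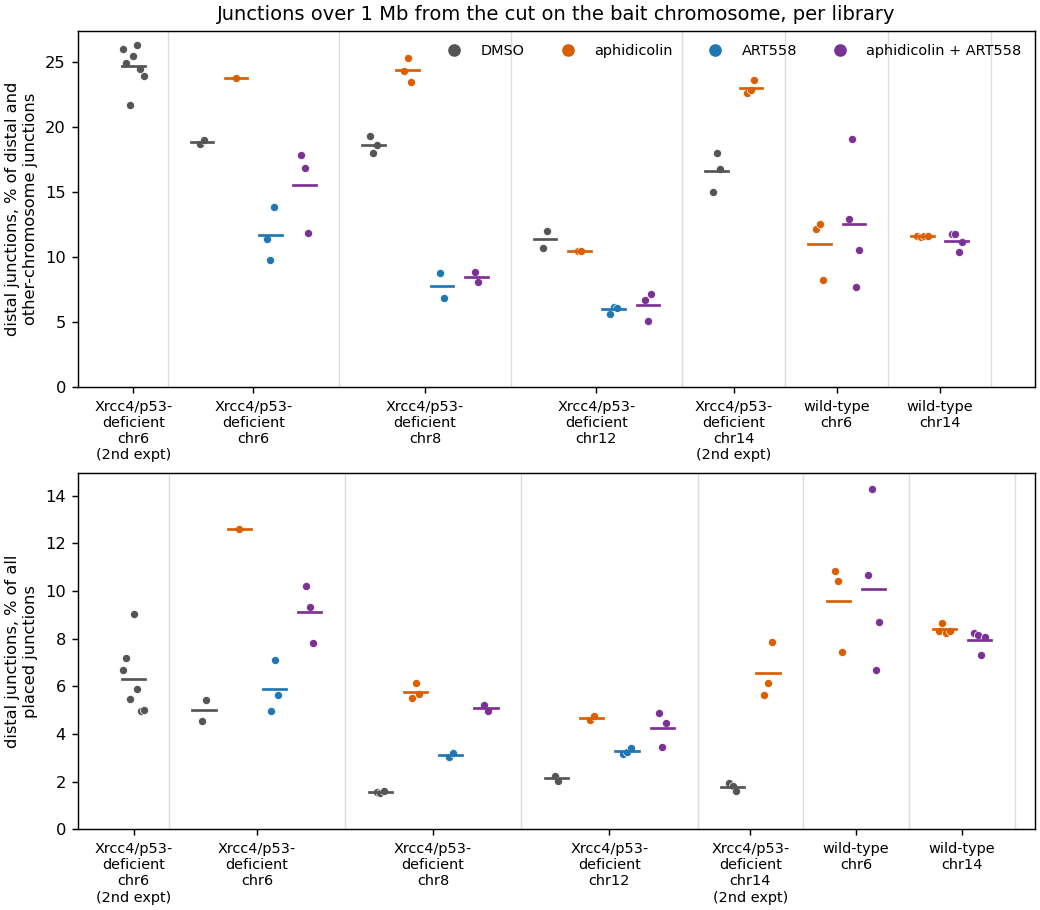
Distal junctions per library by bait and treatment, as a percentage of distal junctions and translocations together (top) and of all placed junctions (bottom). Points are libraries, bars are group means, and 2nd expt marks the promoter experiment. On the upper scale the ART558 libraries lie below the DMSO libraries for chromosomes 6, 8 and 12, with chromosome 8 at 8.76% and 6.90% against 18.0% to 19.3%.

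The plot of shares by bait also shows that the difference with aphidicolin alone varied in sign across baits on the upper scale. Against DMSO the share rose by a mean of 4.06 percentage points (exact permutation p = 0.000833, adjusted p = 0.0064). The difference was 4.93 for chromosome 6, 5.76 for chromosome 8 and 6.42 for chromosome 14, where the DMSO libraries had 15%, 18.1% and 16.8% and the aphidicolin libraries 22.6%, 22.8% and 23.6%. The 7 DMSO libraries of chromosome 6 in the promoter experiment had 21.7% to 26.3% (mean 24.7%), a range that holds the 23.8% of the single aphidicolin library, and with them added the mean difference was 2.92 (exact permutation p = 0.016). For chromosome 12 the difference was -0.87, with both aphidicolin libraries at 10.5%, below both DMSO libraries. As a percentage of all placed junctions, distal junctions were higher with aphidicolin for every bait, at 4.67 ± 0.135% against 2.14 ± 0.162% on chromosome 12 (n = 2 each), with a mean difference of 4.78 percentage points (exact permutation p = 0.000139). As a share of distal junctions and translocations, once distal junctions inside the RDC genes listed by the study were left out, the mean difference was 0.117 percentage points (exact permutation p = 0.857). Translocations inside RDC genes were kept in the denominator, so that this value does not place the rise in the listed genes alone.

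Distal junctions thinned out with distance, and their mean density stayed above that of the other autosomes in every distance class and group but the 5 to 10 Mb class of chromosome 12 with ART558, at 0.987, and the 1 to 2 Mb class of chromosome 6 in wild-type cells with both drugs. Density here is the number of junctions per Mb of known sequence divided by the same number over the other autosomes of the library, without correction for copy number. With DMSO on chromosome 8 it was 14.4 ± 6.62 (SD, n = 3) at 1 to 2 Mb, 8.01 ± 3.66 at 2 to 5 Mb, 5.72 ± 0.663 at 10 to 20 Mb and 3.09 ± 0.567 beyond 50 Mb. With aphidicolin on the same bait it was 24.6 ± 7.94 (n = 3) at 1 to 2 Mb and 4.34 ± 0.132 beyond 50 Mb. With ART558 it was 3.29 ± 0.231 (n = 2) at 1 to 2 Mb and 2.01 ± 0.522 beyond 50 Mb, a shallower slope. On chromosome 12 the ART558 libraries had 2.41 ± 0.793 (n = 3) at 1 to 2 Mb and 1.33 ± 0.139 beyond 50 Mb, close to the density of other chromosomes.

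Chromosome 14 started high in both genotypes. Density at 1 to 2 Mb was 20.3 ± 8.21 in the deficient cells with aphidicolin (n = 3) and 14.9 ± 3.81 in wild-type cells with aphidicolin (n = 4), and beyond 50 Mb it was 4.14 ± 0.301 and 3.10 ± 0.895. On chromosome 6 the decay was broken by a peak at 5 to 10 Mb, of 26.9 in the aphidicolin library and 16.7 ± 4.68 with both drugs (n = 3), against 5.92 ± 0.571 with DMSO (n = 2), 9.56 ± 2.64 with DMSO in the promoter experiment (n = 7) and 2.79 ± 1.25 with ART558 (n = 3). Ctnna2, an RDC gene that encodes the cell adhesion protein alpha-catenin 2, lies in this class, 5.93 Mb from the cut. Wild-type chromosome 6 libraries had few junctions at 1 to 2 Mb, with densities of 4.18 ± 5.997 after aphidicolin (n = 3) and 0.622 ± 0.820 after both drugs (n = 4), or 4.41 ± 6.36 and 0.773 ± 1.02 without shared junctions.

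**Figure D2:**
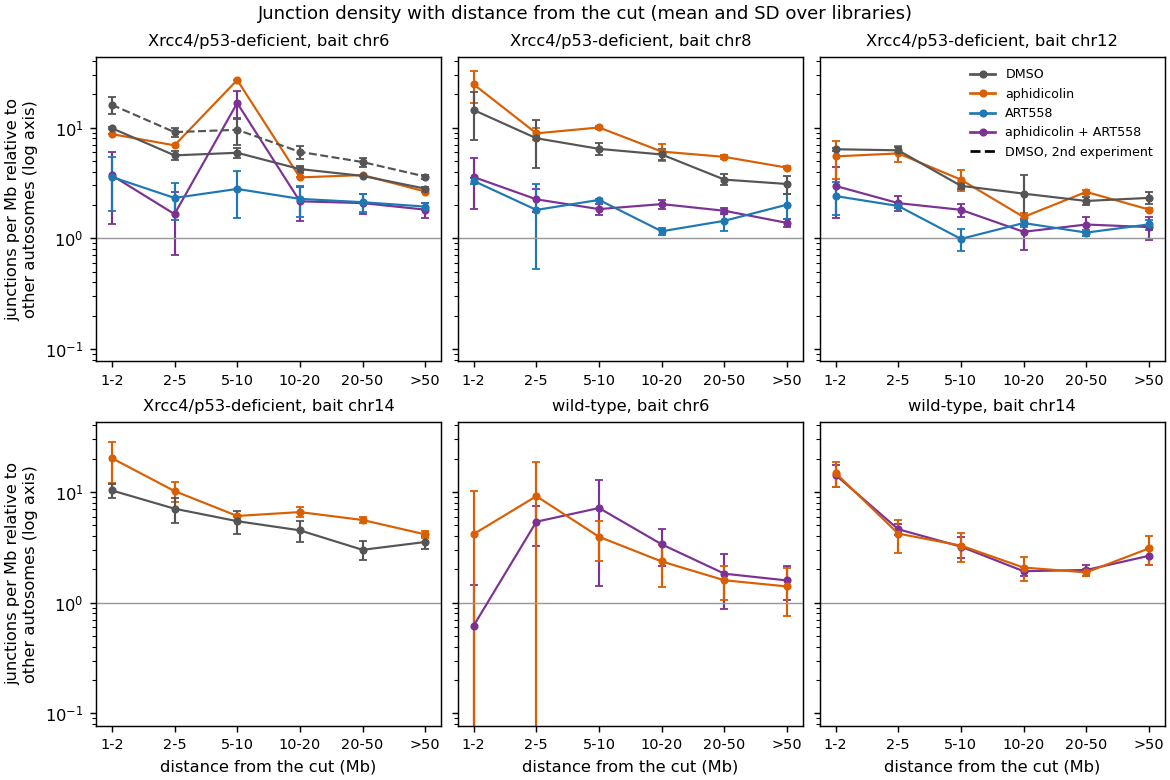
Density of distal junctions relative to the other autosomes (log axis) against distance from the cut in Mb, by bait, genotype and treatment. Points are group means with SD over libraries, and the dashed line is DMSO in the promoter experiment. The deficient cells with ART558 start at 3.29 on chromosome 8 and 2.41 on chromosome 12, whereas those with DMSO start at 14.4 on chromosome 8, and the chromosome 6 peak at 5 to 10 Mb appears with aphidicolin.

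The decay curves were summarized by the percentage of distal junctions within 10 Mb of the cut, which fell with ART558 by 6.83 percentage points (exact permutation p = 0.007, adjusted p = 0.02) and, with aphidicolin in both groups, by 5.67 (exact permutation p = 0.0075, adjusted p = 0.02). Within the run that held both groups of the latter comparison, on chromosome 6, the difference was -2.32 (exact permutation p = 0.75), and the 44.0% with aphidicolin lay among the 44.7%, 42.2% and 38.2% with both drugs. On chromosome 8 the span held 27.5%, 27.2% and 24.4% with aphidicolin and 17.2% and 17.7% with both drugs, and on chromosome 12 it held 27.4% and 30.1% against 22.2%, 24.6% and 22.3%. In the DMSO libraries the span held 21.3% and 19.97% on chromosome 6, 30.0%, 18.8% and 28.6% on chromosome 8 and 29.6% and 23.7% on chromosome 12. In the ART558 libraries it held 16.9%, 11.4% and 17.7%, then 19.4% and 19.6%, then 19.4%, 14.6% and 19.1%. Aphidicolin against DMSO gave 5.99 percentage points (exact permutation p = 0.157), most of it on chromosome 6, at 44.0% against 21.3% and 19.97%, with 20.7% to 28.1% in the DMSO libraries of the promoter experiment. Leaving out that aphidicolin library moved this difference to 0.18.

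The 2 sides of each cut were of unequal length, with 53.7%, 55.6%, 92.2% and 33.9% of the known sequence beyond 1 Mb on the telomeric side of chromosomes 6, 8, 12 and 14. On chromosome 12, where the centromeric side is 8.99 Mb long beyond the limit, telomeric junctions made up 83.1 ± 1.52% with DMSO (n = 2), 88.4 ± 2.43% with ART558 (n = 3) and 78.6 ± 2.64% with aphidicolin (n = 2). On chromosome 6 they made up 57.2 ± 3.93% with DMSO (n = 2), 58.8% to 64.2% with DMSO in the promoter experiment (n = 7), 63.9% with aphidicolin and 68.5 ± 1.32% with both drugs (n = 3). Chromosome 8 moved the other way with aphidicolin, from 54.8 ± 3.13% to 43.7 ± 1.10% (n = 3 each), and the groups did not overlap. Across baits, no drug comparison of the telomeric percentage passed after adjustment (aphidicolin plus ART558 against aphidicolin 2.94 percentage points, exact permutation p = 0.04, adjusted p = 0.0914).

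At equal distance the densities of the sides could be compared directly over 1 to 10 Mb. On chromosome 12 the centromeric side was denser in every group mean, at 5.66 ± 0.0416 against 3.22 ± 0.565 with DMSO (n = 2) and 6.62 ± 0.813 against 2.26 ± 0.238 with aphidicolin (n = 2). On chromosome 6 of the deficient cells the telomeric side, which holds Ctnna2, was denser with aphidicolin, at 25.1 against 11.3, and with both drugs, at 15.3 ± 4.38 against 5.15 ± 1.76 (n = 3), and with DMSO the sides had 6.78 ± 0.199 and 5.73 ± 0.560 (n = 2), or 12.3 ± 1.95 and 7.95 ± 1.61 in the promoter experiment (n = 7). In wild-type cells the telomeric and centromeric sides of chromosome 6 had 7.47 ± 5.40 and 3.95 ± 1.83 with aphidicolin (n = 3) and 5.36 ± 2.83 and 6.34 ± 3.97 with both drugs (n = 4). On chromosome 8 with aphidicolin the centromeric side had 13.2 ± 1.94 and the telomeric side 9.45 ± 0.650 (n = 3).

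Pooled over sides and distances, the strands of the prey were nearly even in number. Collinear junctions, in which the prey continues along the chromosome in the direction of the bait read, made up 42.8% to 62.7% of distal junctions in all used libraries but 1, a wild-type aphidicolin library of chromosome 6 with 34.4%. In the deficient cells the group means lay between 48.7% and 53.7%, and no comparison of genotype or drug passed (ART558 against DMSO 0.629 percentage points, exact permutation p = 0.669; both drugs against aphidicolin -2.09, p = 0.24; aphidicolin against DMSO 1.95, p = 0.0767). By side and distance, pooled over libraries, the percentage lay between 46.8% and 58.7% and was not tested. At 1 to 10 Mb on the primer side it was 58.7% on chromosome 6 (mean of libraries 53.9%, above 50% in 16 and below in 6), 58.5% on chromosome 12, 51.7% on chromosome 14 and 50.5% on chromosome 8. Over 10 Mb on the primer side of chromosome 8 it was 55.7% (above 50% in 8 of 10 libraries). If both ends lie on 1 chromatid, a collinear junction past the cut corresponds to a deletion, a collinear junction on the primer side to an excised circle, and an opposite strand to an inversion. Joints between homologues or sister chromatids can give the same reads, and the tables do not separate them.

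Near the cut these classes were not evenly filled. At 1 to 2 Mb, circles took 43.4%, 26.1%, 46.3% and 40.05% of the junctions of chromosomes 6, 8, 12 and 14, and inversions on the primer side 28.4%, 40%, 27.7% and 39.8%. Deletions took 13.4%, 10.9%, 9.04% and 9.70% there. At 10 to 20 Mb on chromosome 6, circles and primer-side inversions took 33.8% and 24.8% and deletions 22.4%, and on chromosome 14 deletions were 31.4% and circles 20.2%. The primer side is telomeric for chromosome 6 and centromeric for the other baits, so the excess lay on opposite sides of the map. Chromosome 12 has no primer side beyond 10 Mb, and chromosome 14 has only a primer side beyond 50 Mb. Counts are pooled over libraries and are a description.

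**Figure D3:**
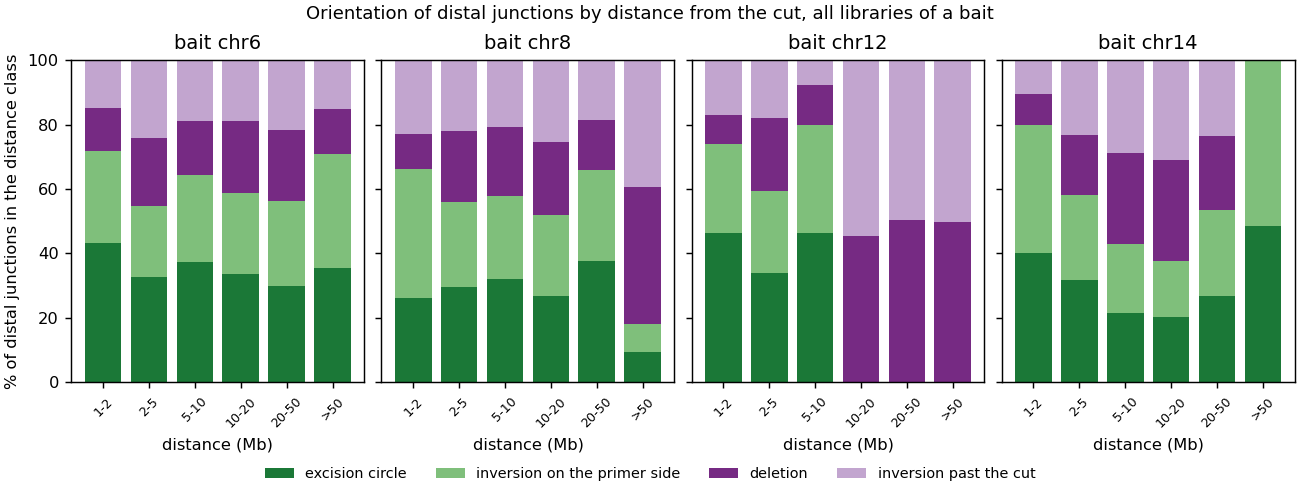
Orientation classes of distal junctions by distance class (Mb) and bait, as a percentage of the junctions in that class, pooled over libraries. At 1 to 2 Mb the classes on the primer side fill most of each bar, with deletions at 9.04% to 13.4%.

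ART558 changed how distal junctions were joined. Among joints with 0 to 10 shared bases, direct joints made up 10.4% and 11.8% of the DMSO libraries of chromosome 6 and 24.7%, 34.9% and 22.9% of the ART558 libraries. On chromosome 8 they made up 9.46%, 15.1% and 11.2% with DMSO and 19.4% and 23.5% with ART558. On chromosome 12 the DMSO libraries had 20.3% and 16.2% and the ART558 libraries 39.1%, 42.4% and 40.4%. No bait had overlapping groups, and direct joints rose by a mean of 16.1 percentage points (exact permutation p = 0.001, adjusted p = 0.0064). Joints with 2 to 4 bp fell by 19.3 (exact permutation p = 0.002, adjusted p = 0.008). With aphidicolin in both groups, direct joints rose by 15.01 and joints with 2 to 4 bp fell by 21.1 (exact permutation p = 0.0025, adjusted p = 0.008 for each). Aphidicolin by itself left both near their DMSO level, with differences of -0.079 and 0.033 percentage points (exact permutation p = 0.929 and p = 0.983), and direct joints made up 11.9% in its chromosome 6 library and 11.05%, 10.5% and 9.47% in those of chromosome 8.

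Distal junctions and translocations of the same library were compared next, since they share the bait cut, the drug and the library. Their bait ends differed in some groups, as given below. In the 26 libraries of deficient cells without ART558, direct joints made up 11.5 ± 3.89% (SD) of distal junctions and 16.9 ± 6.62% of translocations. The difference was -5.45 percentage points, lower in 23 of 26 libraries (sign-flip permutation test, p = 1e-05, the smallest the resamples can give, adjusted p = 4.5e-05 over 9 tests). Joints with 2 to 4 bp were 7.71 percentage points commoner in distal junctions, in 24 of 26 libraries (permutation p = 1e-05, adjusted p = 4.5e-05). The gap was small in the 7 chromosome 6 DMSO libraries of the promoter experiment, with means of 7.67% and 8.41% for direct joints. With ART558 the direct-joint difference was -3.06 percentage points over 16 libraries (exact sign-flip permutation p = 0.0158, adjusted p = 0.0276), lower in 11. Wild-type libraries went the other way, with 34.5 ± 9.08% in distal junctions and 29.6 ± 6.51% in translocations, a difference of 4.89 that was positive in 13 of 15 libraries (exact permutation p = 0.0208, adjusted p = 0.0276). It was 3.09 without aphidicolin replicate 3 of chromosome 6, and 4.29 without shared junctions (exact permutation p = 0.0363).

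**Figure D4:**
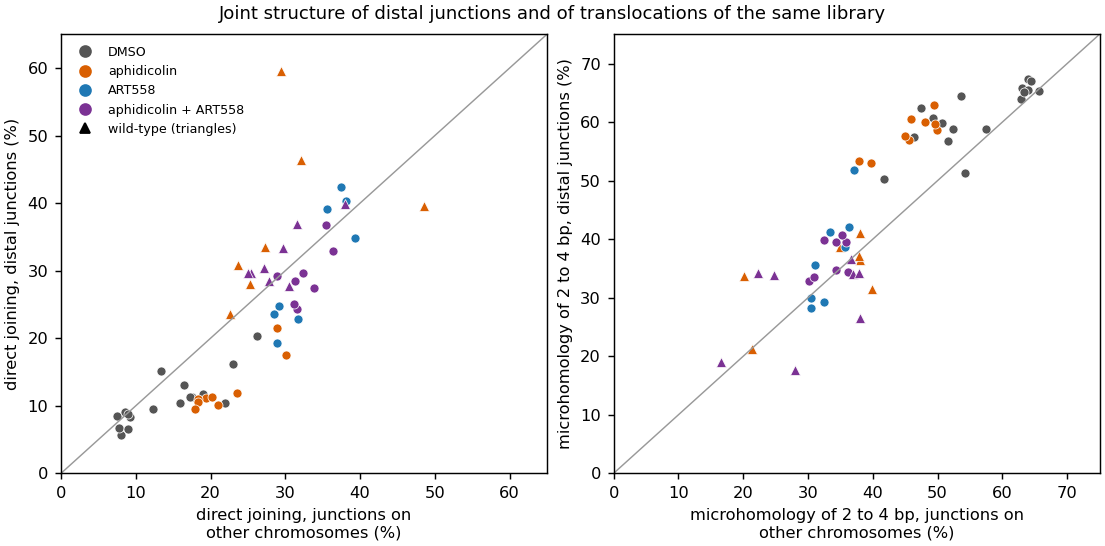
Direct joints and joints with 2 to 4 bp, in percent of joints with 0 to 10 bp, in distal junctions (vertical axis) against translocations (horizontal axis) of the same library. Each point is a library and the line marks equality; deficient libraries without ART558 lie mostly below it for direct joints (23 of 26) and above it for 2 to 4 bp (24 of 26).

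In the plot of joint structure the deficient libraries with and without ART558 overlap across baits, since ART558 replicate 1 of chromosome 8 had 19.4% direct joints and aphidicolin replicate 1 of chromosome 12 had 21.5%, although they did not overlap within a bait for direct joints. Joints with a base or more inserted between bait and prey were 1.90 percentage points rarer in distal junctions than in translocations without ART558 (permutation p = 0.0214, adjusted p = 0.0276) and 3.66 commoner with it (exact permutation p = 0.0089, adjusted p = 0.02, higher in 12 of 16). In the deficient cells with DMSO, direct joints had similar means at all distances, at 10.5 ± 4.82% at 1 to 10 Mb and 10.3 ± 4.60% beyond 50 Mb (17 and 16 libraries). With aphidicolin they were 10.4 ± 3.58% at 1 to 10 Mb, 13.6 ± 3.74% at 10 to 50 Mb and 13.2 ± 7.34% beyond 50 Mb (9 libraries). At 1 to 10 Mb and beyond 50 Mb they were 32.1 ± 11.6% (6 libraries) and 32.1 ± 9.44% (8 libraries) with ART558 alone, and 22.8 ± 5.27% and 33.4 ± 4.37% (8 libraries) with both drugs. Among 2 bp joints, the shared letters GC were the commonest on chromosome 6 (13.5%), CT on chromosome 8 (15.01%) and AG on chromosome 14 (15.5%), whereas CC and GC tied on chromosome 12 (13.2% each).

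The bait ends of distal junctions lay near the cut more often than those of translocations on chromosomes 12 and 14 in the deficient cells without ART558, and on chromosome 8 with aphidicolin. On chromosome 12 with DMSO, 24.5 ± 4.497% of distal junctions and 13.6 ± 2.92% of translocations (n = 2) ended within 5 bases of the cut. On chromosome 14 with aphidicolin these were 24.3 ± 4.204% and 13.0 ± 2.67% (n = 3), and on chromosome 8 with aphidicolin 25.3 ± 1.17% and 17.7 ± 0.903% (n = 3). On chromosome 8 with DMSO the values were 30.8 ± 3.99% and 29.1 ± 0.620% (n = 3), a gap within the spread. On chromosome 6 with DMSO they were 38.2 ± 5.32% and 39.2 ± 3.74% (n = 2), and with both drugs 22.2 ± 3.14% and 33.6 ± 1.68% (n = 3). In wild-type cells they were 27.5 ± 3.43% and 15.5 ± 2.58% on chromosome 14 with aphidicolin and 20.2 ± 2.44% and 13.0 ± 1.18% with both drugs (n = 4 each), and on chromosome 6 they were 54.1 ± 6.24% and 46.4 ± 3.07% with aphidicolin (n = 3) and 58.3 ± 11.3% and 52.5 ± 14.1% with both drugs (n = 4). With ART558 on chromosome 12 of the deficient cells they were 3.24 ± 1.15% and 2.91 ± 0.333% (n = 3), below the DMSO libraries in both classes. These percentages were chosen after seeing the data and were not tested.

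The study lists 31 RDC genes on the bait chromosomes in its classes of late constant-timing and timing-transition regions. RDCs outside these classes were not counted. The 30 genes found in the annotation all lie beyond 1 Mb. They held 4668 distal junctions (14.7%). In the deficient cells they took 10.8 ± 0.156% of distal junctions with DMSO (n = 2) and 41.8% with aphidicolin on chromosome 6, where they cover 6.51% of the sequence. They cover 5.96%, 2.51% and 4.51% of chromosomes 8, 12 and 14. On chromosome 8 the percentages were 7.31 ± 1.64 and 26.1 ± 3.77 (n = 3 each), on chromosome 12 they were 2.86 ± 1.04 and 10.5 ± 0.625 (n = 2 each), and on chromosome 14 they were 7.61 ± 2.98 and 28.2 ± 6.46 (n = 3 each). Both drugs together gave 41.3 ± 3.27% on chromosome 6 (n = 3), 18.2 ± 2.49% on chromosome 8 (n = 2) and 3.25 ± 2.28% on chromosome 12 (n = 3).

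Single genes were compared as junctions per Mb of gene and per 1000 translocations, and a gene was called where the libraries of both groups did not overlap. With aphidicolin against DMSO, 6 of 8 listed genes of chromosome 8 were higher, against 15.3% of all 1 Mb windows of that chromosome. On chromosome 12 the count was 3 of 4 against 11.6%, and on chromosome 14 it was 5 of 6 against 12.4%. No listed gene was lower, against 8.47%, 29.5% and 3.81% of the windows of chromosomes 8, 12 and 14. The median log2 ratios of the listed genes were 1.66, 1.24 and 2.65, and those of the windows 0.12, -0.33 and 0.36. The windows include those that hold the genes. The RDCs were defined before the study, and the paper describes aphidicolin as a common inducer of them. The list is thus not independent of the drug, and these counts are a description. Of the genes called higher, Csmd1, Wwox, Immp2l, Grid1 and Erc2 reached the minimum of 5 junctions only through the aphidicolin libraries. They held 2, 2, 4, 2 and 4 junctions with DMSO. Chromosome 6 has 1 aphidicolin library, and its genes are given as values.

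Ctnna2 (chr6:76881637-77979699, minus strand) held 1278 distal junctions, the most of any listed gene. Its density was 5.08 and 3.99 in the DMSO libraries of the Pol theta collection, 5.17 to 18.7 in the 7 DMSO libraries of the promoter experiment, and 67.03 in the aphidicolin library. With both drugs it was 57.5, 46.6 and 30.4, and with ART558 alone 1.89, 0.296 and 3.13. All 3 ART558 values were thus below both DMSO values of their collection. Ccser1 (chr6:61180324-62382865, plus strand), on the other side of the cut, had 2.32 and 2.24 with DMSO, 12.9 with aphidicolin and 9.40, 6.001 and 4.24 with both drugs.

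On chromosome 8 Csmd1 (chr8:15892537-17535586, minus strand), a gene for a membrane protein with CUB and sushi domains, had 0.856, 0.739 and 0 with DMSO and 19.4, 19.1 and 13.9 with aphidicolin. The DMSO libraries held 1, 1 and 0 junctions there and the aphidicolin libraries 43, 65 and 31. The gene reached the minimum of 5 junctions only through the latter, so that its call is a description. With both drugs the used libraries had 5.20 and 4.76. The density of Sgcz (chr8:37522298-38661508, minus strand), which encodes zeta-sarcoglycan, was 2.47, 1.07 and 2.97 with DMSO, 14.3, 12.3 and 11.6 with aphidicolin and 1.35 and 2.66 with both. Cdh13 (chr8:118283733-119324921, plus strand), the gene of the cell surface protein cadherin 13, had 5.40, 1.17 and 2.16 with DMSO, 14.3, 9.28 and 7.77 with aphidicolin and 1.47 and 1.70 with both. Tenm3 and Wwox were also higher with aphidicolin, by log2 ratios of 1.42 and 2.93, and March1 by 1.51.

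On chromosome 12 Immp2l (chr12:41024090-41955588, plus strand), which encodes a peptidase subunit of the mitochondrial inner membrane, had 0.660 and 0.392 with DMSO and 5.15 and 5.41 with aphidicolin. It had 1.05, 0 and 0.577 with both drugs. Hdac9 (chr12:34047580-34917095, minus strand), a histone deacetylase gene, had 1.77 and 1.05 with DMSO, 5.12 and 3.74 with aphidicolin and 0, 0.262 and 1.24 with both. Mdga2 (chr12:66466060-67222549, minus strand) had 1.63 and 0.966 with DMSO and 2.49 and 2.37 with aphidicolin, a smaller step, and 0.772, 0.301 and 2.13 with both.

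On chromosome 14 all 3 leading genes had clearly separate groups. Pcdh9 (chr14:93013410-93890679, minus strand), a protocadherin gene, had 8.69, 0 and 4.89 in the used DMSO libraries and 25.8, 30.5 and 16.3 with aphidicolin. Nrg3 (chr14:38368952-39473088, minus strand), which encodes the growth factor neuregulin 3, had 3.95, 1.13 and 3.89 with DMSO and 28.5, 25.1 and 15.4 with aphidicolin. Gpc6 (chr14:116925315-117976544, plus strand), which encodes the proteoglycan glypican 6, had 2.07, 2.38 and 2.72 with DMSO and 23.5, 23.7 and 15.3 with aphidicolin. In wild-type cells with aphidicolin the 4 libraries had 0.802 to 5.00 in Pcdh9, 0 to 1.97 in Nrg3 and 0 to 2.90 in Gpc6, all below the deficient libraries with the same drug.

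**Figure D5:**
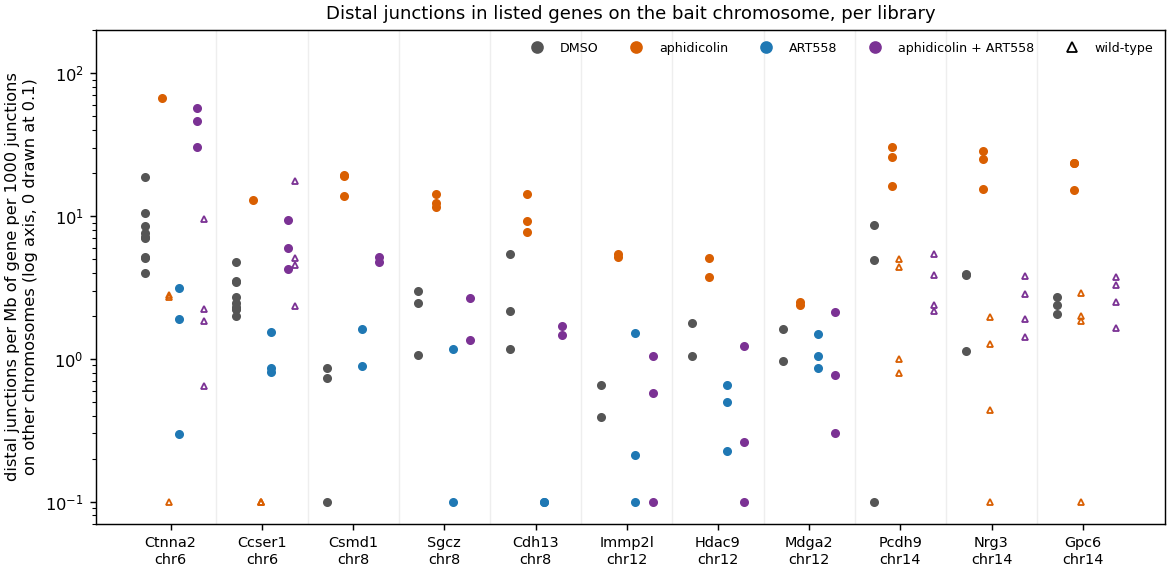
Distal junctions per Mb of gene and per 1000 translocations in listed genes with many junctions, 2 on chromosome 6 and 3 on each other bait chromosome, by treatment, on a log axis with 0 drawn at 0.1. Points are libraries, with DMSO libraries of both experiments together and wild-type cells as open triangles. Ctnna2 reaches 67.03 with aphidicolin, Csmd1 goes from 0 to 0.856 with DMSO to 13.9 to 19.4, and the chromosome 12 genes stay under 6.

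In the plot of gene densities, each used library of the deficient cells with both drugs lies under each aphidicolin library in the 6 genes of chromosomes 8 and 12. Both drugs against aphidicolin gave lower values in 8 of 8 listed genes of chromosome 8, where 52.1% of all windows were lower too, and in 3 of 4 of chromosome 12, where 32.4% were. None of these genes was higher, against 0.84% and 3.6% of windows. March1 and Pard3 reached the minimum of 5 junctions only through the aphidicolin libraries, so that their calls are a description. The medians were -2.63 and -2.16 in the genes and -1.47 and -0.47 in the windows (log2). This comparison and that of aphidicolin against DMSO share the aphidicolin libraries. In wild-type cells, no listed gene of chromosome 14 was called higher or lower with both drugs against aphidicolin (0 of 6), where 1.69% of windows were higher. On chromosome 6, 7 of 12 listed genes reached the 5 junctions needed, and Ccser1 and Snd1 reached them through the combined-drug libraries alone, so that their values are a description. Ccser1 had 0 junctions in all 3 aphidicolin libraries and densities of 4.57, 17.5, 5.08 and 2.35 with both drugs, and without shared junctions the latter fell to 1.17 to 8.75 (mean 3.95 against 7.38, 21 junctions). Snd1 went from 12 to 4 junctions without them, under the minimum, and its groups then overlapped. Of the windows of chromosome 6, 2.70% were higher and 4.05% lower, or 1.61% and 4.84% without shared junctions.

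Within the listed genes the strands of the prey were ordered. With aphidicolin, the median plus-strand junction lay telomeric of the median minus-strand junction in 24 of 26 genes with at least 10 junctions of each strand, against 71 of 128 windows of 1 Mb outside these genes (55.5%). In Ctnna2 the medians lay at 57.1% and 42.0% of the gene length, measured from the centromeric end, in Csmd1 at 68.2% and 58.0%, and in Nrg3 at 59.7% and 45.1%. Without aphidicolin the order held in 12 of 12 genes and in 85 of 163 windows (52.1%), for example at 58.9% and 43.4% in Ctnna2. The median offset was 0.163 Mb in genes and 0.0359 Mb in windows with aphidicolin. Genes and windows differ in length, and the difference was not tested.

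More than 10 Mb from the cut, the densest windows of 1 Mb, by junctions per 1000 translocations, partly held RDC genes. On chromosome 8 they were 16 to 17 and 17 to 18 Mb, both in Csmd1, and 48 to 49 Mb, with Tenm3, and on chromosome 12 they were 41 to 42 Mb (Immp2l), 34 to 35 Mb (Hdac9) and 29 to 30 Mb (Myt1l and Pxdn). On chromosome 6 they were 114 to 115 Mb, 83 to 84 Mb and 119 to 120 Mb, whose densities of 2.99 ± 3.96, 2.50 ± 1.92 and 2.29 ± 2.27 (n = 23) exceeded a median window of 1.21. The window of 114 to 115 Mb had a mean of 9.91 in wild-type cells with aphidicolin, 0 in those with both drugs and 2.44 in deficient cells, where that of 83 to 84 Mb had 2.75. On chromosome 14 the window of 19 to 20 Mb held 461 junctions in all 14 libraries, with a mean density of 20.1 in wild-type and 2.69 in deficient cells, the window with most of Gpc6 had a mean of 6.48 over all libraries, and that of 26 to 27 Mb had 13.7 in deficient and 0.58 in wild-type cells. In the window of 26 to 27 Mb, 74 of 121 junctions lay within a single stretch of 100 bp. The genotypes differ in cell source and sequencing run as well, so that these cannot be told apart.

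Some single positions recurred between libraries. On chromosome 12, chr12:3109953-3110051 was hit in 9 of 10 libraries (41 junctions), close to the first known base of the assembly at 3000001. On chromosome 14, chr14:45812856-45812868 in the non-coding gene Gm15218 was hit in 12 of 14 libraries by 27 junctions, all on the minus strand, 14 from deficient and 13 from wild-type cells. On chromosome 6 the position hit most, in 10 of 23 libraries, was chr6:103649197-103649292 in Chl1, and on chromosome 8 it was chr8:72570970-72570995 in Smim7, in 2 of 10. The best match to the bait's guide within 200 bp had 12, 10, 13 and 9 mismatches for chromosomes 12, 14, 6 and 8. Of all windows of that size, 71.8%, 23.3%, 95.03% and 5.92% held a match as good or better.

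The genotypes were compared under the same drug and bait, on chromosomes 6 and 14 with aphidicolin and on chromosome 6 with both drugs. The share was 22.6%, 22.8% and 23.6% in deficient cells and 11.6%, 11.6%, 11.6% and 11.7% in wild-type cells on chromosome 14 with aphidicolin. On chromosome 6 it was 23.8% against 12.2%, 12.6% and 8.27% with aphidicolin, and 17.9%, 16.8% and 11.8% against 13.0%, 19.1%, 7.71% and 10.5% with both drugs. The mean difference was 9.05 percentage points (exact permutation p = 0.0016, adjusted p = 0.008), but of all placed junctions it was 0.0758 (exact permutation p = 0.946), since junctions within 1 Mb took 71.6% of the deficient and 27.9% of the wild-type aphidicolin libraries of chromosome 14. In deficient cells, direct joints differed by -20.5 percentage points (exact permutation p = 0.000612, adjusted p = 0.0064), or by -12.4 without the single aphidicolin library of chromosome 6, and joints with 2 to 4 bp by 20.8 (exact permutation p = 0.000204, adjusted p = 0.0064). The telomeric percentage was 10.2 percentage points higher (exact permutation p = 0.01, adjusted p = 0.0246), which on chromosome 14 alone was 0.528. This difference was smaller without the listed genes, as given in the closing section. By bait and drug, the direct-joint difference was -36.7 on chromosome 6 and -18.1 on chromosome 14 with aphidicolin, and -6.78 on chromosome 6 with both drugs, where the groups overlapped. Without shared junctions the share differed by 10.3 (exact permutation p = 0.000408), the telomeric percentage by 8.69 (exact permutation p = 0.0251), direct joints by -19.4 (exact permutation p = 0.000204) and joints with 2 to 4 bp by 21.1 (exact permutation p = 0.000408). Genotype, cell source and run cannot be told apart here.

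In wild-type cells, none of the 6 measures passed the threshold over both baits when ART558 was added to aphidicolin. The share differed by 0.614 percentage points (exact permutation p = 0.787), the span within 10 Mb by -0.808 (exact permutation p = 0.86), the telomeric percentage by -6.19 (exact permutation p = 0.132), direct joints by -6.75 (exact permutation p = 0.0796) and joints with 2 to 4 bp by -4.44 (exact permutation p = 0.251). On chromosome 6 the telomeric percentage was 38.0% to 51.2% with both drugs and 56.3% to 60.3% with aphidicolin, without overlap, a mean difference of -13.2, and on chromosome 14 the groups overlapped with a difference of 0.803. On chromosome 14 the direct joints made up 33.4%, 28.1%, 23.6% and 30.8% with aphidicolin and 29.6%, 30.5%, 29.7% and 28.5% with both drugs, with overlapping groups. On chromosome 6 they made up 39.6%, 46.4% and 59.6% against 33.3%, 39.9%, 36.9% and 27.8%. Without the shared junctions the differences were -1.07 in share (exact permutation p = 0.34), -3.20 within 10 Mb (exact permutation p = 0.481), -4.96 in the telomeric percentage (exact permutation p = 0.244), -6.91 in direct joints (exact permutation p = 0.0486, unadjusted) and -7.13 in 2 to 4 bp (exact permutation p = 0.146). On chromosome 6 the ART558 effect on the share was 9.83 percentage points lower in deficient than in wild-type cells, and that on direct joints 29.9 higher (exact permutation p = 0.279 and p = 0.293), or 6.55 lower and 30.4 higher without shared junctions (exact permutation p = 0.471 and p = 0.321). The permutation exchanged genotype labels within each drug, which assumes no genotype difference under either drug. These p-values therefore do not test whether the drug effects differ between genotypes. The values also rest on a single deficient aphidicolin library, so that a p over the threshold says little here.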

How the data were processed

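LAM-HTGTS libraries were sequenced by the authors, who trimmed and demultiplexed the reads with TranslocProcess of the HTGTS pipeline, aligned them to mm10/GRCm38 with Bowtie2 and called junctions with TranslocWrapper. The deposited tables, in no fixed unit, list 1 junction a row with its position, strand and the bait and prey limits in the read, and the authors did not normalize them. Of 593366 complete rows, those on chromosomes 1 to 19, X and Y were used (0.337% lay elsewhere), and 1 incomplete row ending the file of an ART558 library of chromosome 6 was left out. Repeated junctions were kept. There are no molecular identifiers, so intervals (Wilson, 95%) cover counting error only. The 12 Repli-seq samples were not used here.

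Positions were read with Python 3.11.15, pandas 2.3.3 and NumPy 2.4.6, with genes from GENCODE M21, tests from SciPy 1.17.1 and figures from Matplotlib 3.10.9. Microhomology was the overlap of bait and prey in the read, from 0 to 10 bp, and negative values were insertions. Libraries of a bait were compared by exact permutation within baits, two-sided, the p being the share of arrangements with a statistic at least as large in size. Distal junctions and translocations of a library were compared by flipping signs, with 100000 resamples above 16 libraries. Benjamini-Hochberg adjustment ran over 32 and 9 tests, and the threshold of 0.05 in the closing section is for the raw p. Genes and windows needed 5 junctions, and 0.1 was added before log2. The procedure was tested on simulated data. The name of each read gave its sequencing run.

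The junctions and lists were chosen with earlier results of these data known. Named genes were the 3 listed genes a bait with most distal junctions (1 of chromosome 6 is not reported here), the 3 densest windows over 10 Mb away and the position hit in most libraries. The alternatives were other limits, denominators and classes, single counting, no minimum of junctions, listed genes left out, other DMSO libraries, runs, replicate numbers and each library left out. Leaving out shared junctions, prey alignments under 50 bases or recurrent windows, and chromosome 14 alone for the wild-type comparisons, were added after seeing the data.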

Additional observations from a re-analysis of the deposited data

How the results depend on the processing

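Of the alternative values, 306 kept their direction and side of the threshold, 21 kept the direction and lost the threshold, 8 gained it and 32 reversed, most of them differences near 0. As a percentage of all junctions, the share reversed for ART558 against DMSO (1.202) and lost its call for deficient against wild-type cells (0.0758). In the following, differences are in percentage points. Without distal junctions in the listed genes, all translocations being kept, aphidicolin against DMSO gave 0.117 in share, 4.12 within 10 Mb (now past), -3.68 on the telomeric side (now past), 1.24 in direct joints and -1.49 in 2 to 4 bp. The same setting gave -0.456 for the wild-type drug difference in share, and -5.86 within 10 Mb and 4.77 on the telomeric side between genotypes.

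Only junctions at 1 to 10 Mb gave -8.53 on the telomeric side and -1.95 collinear for ART558 against DMSO, 0.715 and 1.65 for both drugs against aphidicolin, and 10.7 and 11.1 (now past) between genotypes. A class of 1 to 20 Mb gave 0.967 for the wild-type drug difference, a limit of 2 Mb gave 0.161 there, and -0.0236 in 2 to 4 bp for aphidicolin against DMSO, and insertions in the denominator gave -0.317 for the latter. Single counting gave 2.90 on the telomeric side for both drugs against aphidicolin, 0.00173 in direct joints and -0.294 in 2 to 4 bp for aphidicolin against DMSO, 0.797 within 10 Mb for the wild-type drug difference and 9.43 within 10 Mb between genotypes (now past). No minimum of junctions gave 1.70 on the telomeric side for both drugs against aphidicolin and 3.15 collinear for aphidicolin against DMSO (now past). Adding the DMSO libraries of the promoter experiment gave -0.629 on the telomeric side for ART558, and 5.37 within 10 Mb (now past), 0.586 in direct joints and -0.776 in 2 to 4 bp for aphidicolin. Within runs, both drugs against aphidicolin gave -8.25, -2.32, 4.62, 15.8 and -22.6 in share, within 10 Mb, telomeric, direct and 2 to 4 bp, from 4 libraries.

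With the replicate number as a block, ART558 against DMSO gave -6.99 within 10 Mb and -19.4 in 2 to 4 bp, both drugs against aphidicolin gave -8.81, -4.34, 3.52, 13.9 and -20.6 in the same order as above, aphidicolin against DMSO gave -0.552 in 2 to 4 bp, and the genotypes 10.1 on the telomeric side, all without a call (for both drugs against aphidicolin the smallest possible p is 0.0625). The block changed no other call. The numbers did not pair the libraries, since deviations of libraries with the same number correlated at -0.651 to 0.381 (median 0.0148, 30 pairs).

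Of the alternatives chosen after seeing the data, leaving out shared junctions gave -1.07 in share and -6.91 in direct joints (now past) for the wild-type drug difference and 0.655 in insertions for wild-type distal junctions against translocations, and leaving out recurrent windows gave -8.07 in direct joints (now past). Prey alignments of at least 50 bases gave -0.433 collinear for ART558, 0.609 direct and -1.82 in 2 to 4 bp for aphidicolin, and 0.130 within 10 Mb and -0.0469 collinear for the wild-type drug difference. Chromosome 14 alone gave -0.347, 1.25, 0.803, -1.78 and 0.577 in share, within 10 Mb, telomeric, collinear and direct for the wild-type drug difference, and -4.56 within 10 Mb and 0.528 telomeric between genotypes.

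Leaving out each library in turn changed no call of share, direct joints or 2 to 4 bp for ART558 against DMSO, both drugs against aphidicolin, or the genotypes. It gave 2.10 to 3.56 for telomeric in both drugs against aphidicolin, 1.27 to 2.81 collinear, -0.594 to 0.436 direct, -0.868 to 0.933 in 2 to 4 bp and -4.41 to -0.939 telomeric in aphidicolin against DMSO, -0.719 to 1.98 collinear and -0.254 to 1.60 telomeric in ART558 against DMSO, -1.33 to 3.59 collinear and 4.19 to 9.46 within 10 Mb between genotypes. In the wild-type drug difference it gave -1.02 to 5.80 collinear, -8.98 to -3.99 direct, -2.87 to 3.00 within 10 Mb, -0.468 to 1.43 in share and -7.82 to -3.90 telomeric, and for 2 to 4 bp in wild-type distal junctions against translocations -0.634 to 1.16. The cause of these changes was not tested. Libraries with few distal junctions, above all those of wild-type chromosome 6, and the single aphidicolin library of chromosome 6 limit the precision.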
